A study of Mus musculus with 24 samples.

Results

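Replication-dependent histone genes were followed in macrophage preparations of the mouse liver, selected with beads against the surface protein that Adgre1 encodes. The genes were chosen by symbol, as those of the H1f1 to H1f5, H2ac, H2bc, H3c and H4c series, and the rule used no measured level except to take the cluster of highest mean where a symbol had several. There were 53 of them among 22206 transcript clusters (1 cluster is the set of probes for 1 gene): 4 for the linker histone H1, 13 for H2A, 15 for H2B, 10 for H3 and 11 for H4. By the annotation 45 lay on chromosome 13 and 8 on chromosome 3. H3c14 and H3c15 carried identical values on every array and were 1 measurement given under 2 names. Histone genes of 1 family have nearly identical coding sequences, so a probe can pick up RNA of its neighbours, and a value given here under 1 symbol may hold signal of others.

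The 24 arrays formed 8 groups of 3. The SE animals had lost the spleen, by the study's figure legends 7 days before the experiment, and kept the whole liver. LR+SE and SE animals may therefore also differ in the time since splenectomy. The LR+SE animals had lost the spleen 7 days before 70% of the liver was resected and were examined 24 h, 3 days and 7 days after resection. The intact animals had both organs, and the LR animals had the same resection with the spleen in place, at the same times. The labels call the animals with both organs intact while the study's methods describe a sham operation, so whether these mice were operated on is not settled. The mice were C57BL/6 males by the methods, with no age given, and each preparation pooled the cells of 5 mice. The animals listed are too few for separate pools of that size in every group, so p-values measure the spread between these preparations, which can be smaller than that between mice. Values are log2 signals as deposited, so a difference of 1 is a doubling of signal. A gene was called changed where limma's Benjamini-Hochberg adjusted p over all 22206 clusters was under 0.05, and ± after a difference is its standard error. Counts at an unadjusted p under 0.05, counts of sign and counts from alternative fits stand without the share of all clusters at the same rule. They are not to be read against the shares of called clusters.

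The macrophage marker Clec4f, a lectin of Kupffer cells, lay between 15.60 and 19.68 on the 24 arrays and Adgre1 between 13.46 and 16.78. The hepatocyte product Alb was high as well, at 14.74 to 19.91, so the preparations held RNA of other liver cells. A background level of 3.98 was set from odorant receptor clusters, and between 50.0% and 53.2% of clusters exceeded it on each array. Of the 53 histone genes 47 exceeded it on all 24 arrays. Although the methods give male mice, 5 arrays lacked Y-linked signal (mean of Kdm5d, Eif2s3y and Uty 2.60 to 3.08, against 6.75 to 8.78 on the other 19): all 3 of the intact group, LR+SE 3 days replicate 1 and LR 7 days replicate 2. Comparisons with intact therefore differ in Y-linked signal too, and all comparisons were refitted with a term for it. That term can be estimated only from LR+SE 3 days replicate 1 and LR 7 days replicate 2 against the other arrays of their groups. No intact array had the signal, so values under the term in comparisons with intact rest on that estimate.

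Replication-dependent histone genes supply the proteins that package newly made DNA. Their mRNAs accumulate while a cell copies its genome in S phase and are degraded when copying ends. They are the only animal mRNAs known to end in a conserved stem-loop in place of a poly(A) tail. The stem-loop is bound by Slbp, which guides processing, export and translation. Transcription of the clustered genes is driven through Npat, a cofactor activated by cyclin E with Cdk2, and Casp8ap2 takes part in processing in the same nuclear bodies. Mature macrophages and neutrophils divide little, whereas Kupffer cells, monocyte-derived cells and bone marrow progenitors can divide, so the RNA of these genes is widely read as a trace of cells in S phase. In RNA of a whole preparation, more cells in S phase and more histone RNA per such cell cannot be told apart. Whether the labelling reaction depended on a poly(A) tail is not given in the sources used here.

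The sequence in front of these genes shows what the families share and what sets them apart, so windows of 8 members that the results turn on are printed. RefSeq promoter sequences (build GRCm38.p6) matched 48 of the 53 genes. In the 250 bases upstream of the annotated start, searched on both strands, CCAAT, the letters recognised by the factor NF-Y, stood in 81.2% of the matched histone genes, against 34.5% of all 27025 genes with a promoter sequence. At least 2 copies stood in 70.8%, against 10.5% of all genes. TATAAA stood in 50.0%, against 13% of all genes. The octamer ATTTGCAT, bound by Pou2f1, stood in 25.0%, against 1.61% of all genes, in 6 of 13 H2A genes and 6 of 13 H2B genes and in no H1, H3 or H4 gene. AAACACA, the AC box known from H1 promoters, stood in 3 of 4 H1 genes and in 14.6% of all matched histone genes, against 6.22% of all genes. H4 genes held CCAAT least often, in 3 of 10. A match of letters is a description and not a binding site. Below are the 150 bases just upstream of the start, read along the gene's strand, with matches on either strand in capitals. The windows lie at chr13:21780626-21780775 (-) for H1f5, chr13:23738657-23738806 (+) for H1f2, chr13:23571221-23571370 (-) for H2ac8, chr13:21753913-21754062 (-) for H2ac15, chr13:22035671-22035820 (+) for H2bc12, chr3:96246535-96246684 (+) for H3c14, chr13:21717478-21717627 (+) for H3c10 and chr13:23756787-23756936 (+) for H4c2. In H1f5 the AC box comes first, then CCAAT, which on the gene's own strand begins 53 bases before the start, and TATAAA, which begins 28 bases before it, and H3c10 likewise has CCAAT at 53 and TATAAA at 31. The H2ac8 and H2bc12 windows hold the octamer, while those of H3c14 and H4c2 hold none of the searched letters.
H1f5: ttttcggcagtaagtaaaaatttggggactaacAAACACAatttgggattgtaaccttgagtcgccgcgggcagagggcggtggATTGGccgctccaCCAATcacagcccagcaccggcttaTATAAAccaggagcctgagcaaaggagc
H1f2: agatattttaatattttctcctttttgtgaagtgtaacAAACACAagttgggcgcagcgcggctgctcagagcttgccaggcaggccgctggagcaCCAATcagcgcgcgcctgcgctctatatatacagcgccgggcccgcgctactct
H2ac8: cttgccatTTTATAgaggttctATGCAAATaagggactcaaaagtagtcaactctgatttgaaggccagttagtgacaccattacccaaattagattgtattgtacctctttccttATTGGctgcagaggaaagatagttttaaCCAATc
H2ac15: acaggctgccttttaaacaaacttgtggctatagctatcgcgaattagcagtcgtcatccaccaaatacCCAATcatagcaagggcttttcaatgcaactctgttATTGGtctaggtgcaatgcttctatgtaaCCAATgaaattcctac
H2bc12: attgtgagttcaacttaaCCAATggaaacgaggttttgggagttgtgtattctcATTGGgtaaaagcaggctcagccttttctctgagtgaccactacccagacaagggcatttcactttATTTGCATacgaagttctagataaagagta
H3c14: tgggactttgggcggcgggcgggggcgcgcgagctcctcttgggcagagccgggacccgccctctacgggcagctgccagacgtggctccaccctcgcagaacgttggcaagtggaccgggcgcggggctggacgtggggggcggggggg
H3c10: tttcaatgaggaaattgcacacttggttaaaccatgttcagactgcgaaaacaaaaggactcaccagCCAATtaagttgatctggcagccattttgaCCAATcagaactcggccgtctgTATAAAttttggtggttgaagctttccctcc
H4c2: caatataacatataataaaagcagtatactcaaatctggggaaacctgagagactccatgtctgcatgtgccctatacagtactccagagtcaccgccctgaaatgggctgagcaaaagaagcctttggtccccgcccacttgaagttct

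Across the 24 arrays the level of a typical histone gene, taken as the median of the 53 on an array, was highest in LR+SE at 24 h and lowest in LR at 24 h and in intact preparations. After splenectomy it stood at 7.84, 8.73 and 8.08 in SE, at 9.92, 9.33 and 10.54 in LR+SE 24 h, at 8.89, 8.07 and 9.77 in LR+SE 3 days and at 9.21, 8.73 and 8.34 in LR+SE 7 days. With the spleen in place it stood at 7.39, 6.99 and 6.54 in intact, at 7.22, 6.74 and 6.23 in LR 24 h, at 8.76, 8.71 and 9.32 in LR 3 days and at 7.61, 8.02 and 8.41 in LR 7 days. The 3 LR+SE 24 h arrays lay above all 3 LR 24 h arrays by more than 2 log2 units. At 3 days the LR+SE and LR arrays overlapped.

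**Figure D1:**
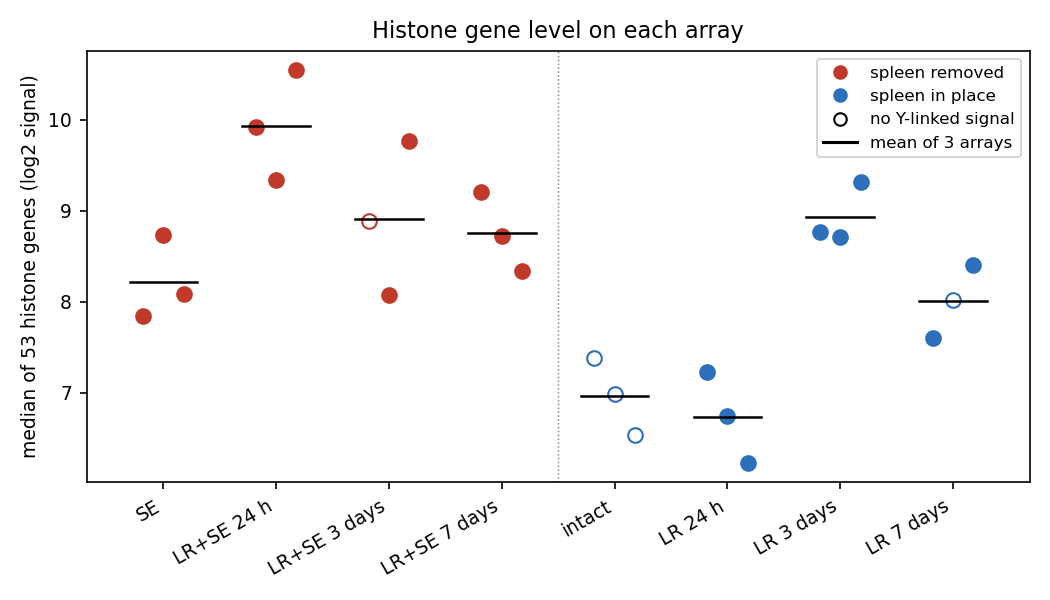
Median log2 signal of the 53 histone genes on each of 24 arrays (vertical axis), by group (horizontal axis), in red with the spleen removed and in blue with it in place. Bars are means of 3 arrays and open circles are arrays without Y-linked signal, among them all 3 intact arrays at 6.54 to 7.39. The LR+SE 24 h arrays sit at 9.33 to 10.54 and the LR 24 h arrays at 6.23 to 7.22.

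The members moved together. Of the 53 genes, 48 had their highest group mean in LR+SE 24 h, and the lowest mean fell in LR 24 h for 30 and in intact for 22. For 44 genes the correlation with the mean profile of the other members over the 24 arrays was above 0.8 (median r 0.943), which describes these arrays and carries no p, since arrays of a group and probes of near-identical genes are not independent. Every family held genes of this kind.

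**Figure D2:**
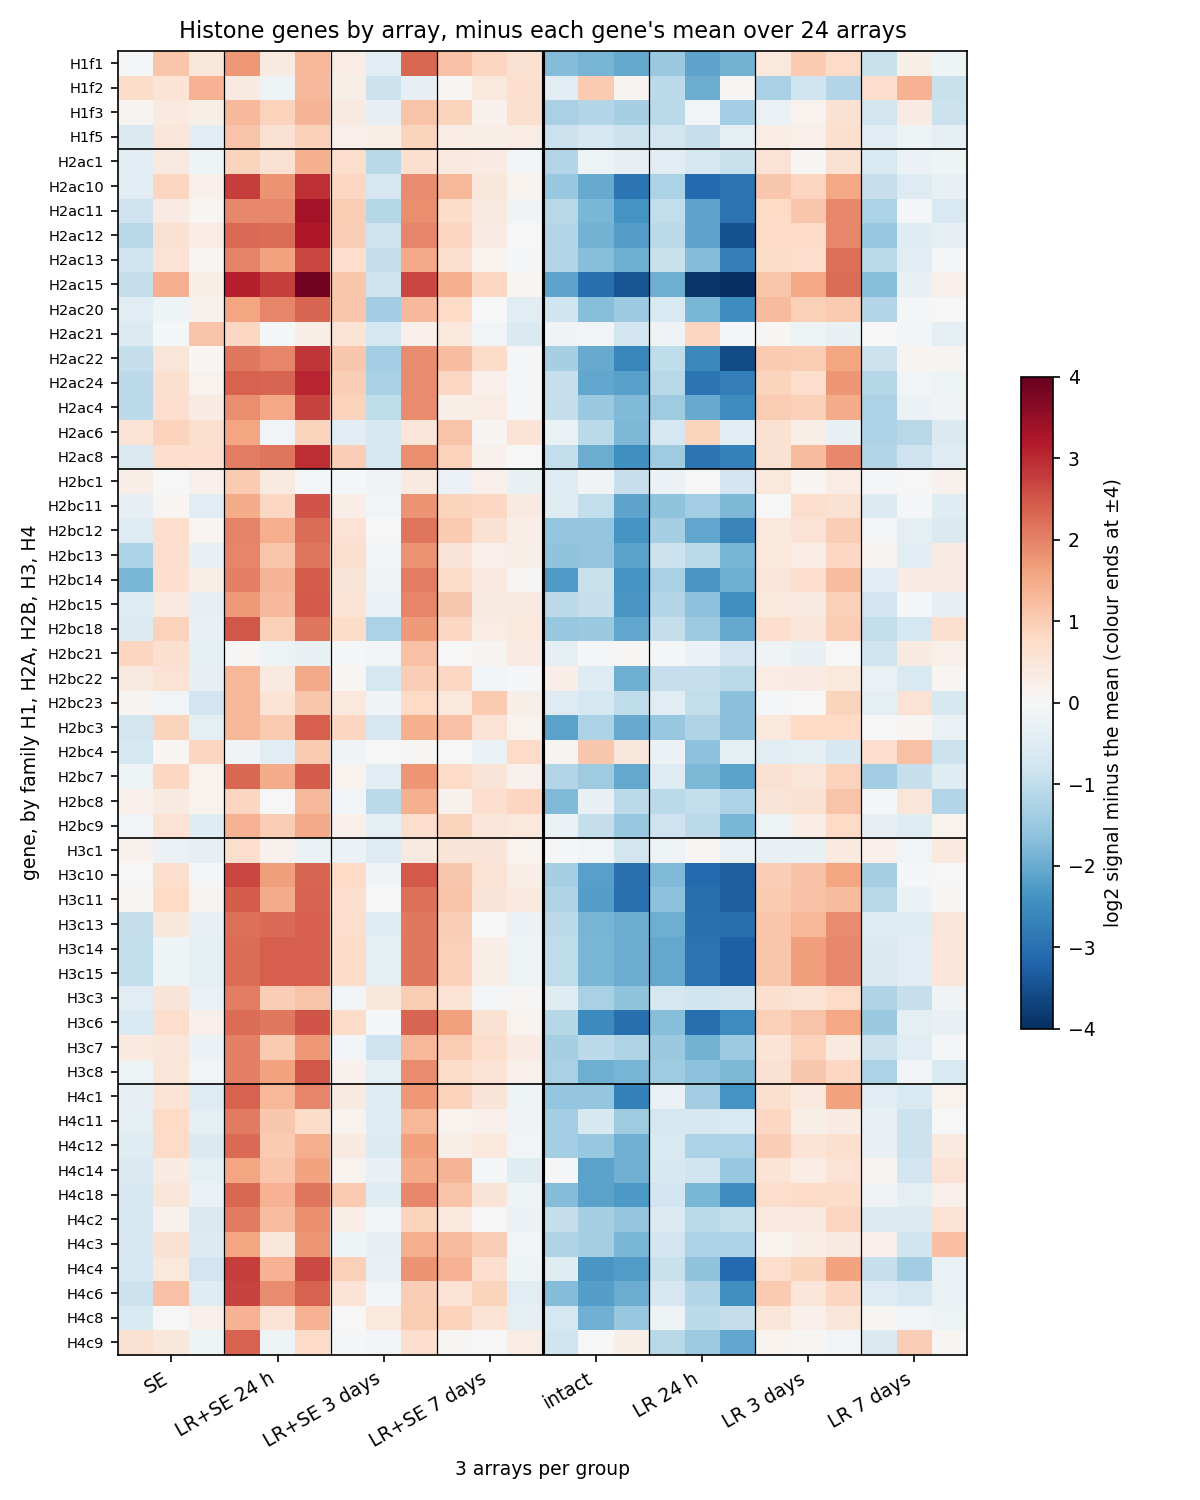
Log2 signal of each histone gene (rows, by family) on each of 24 arrays (columns, 3 per group) minus that gene's own mean over the arrays, red above and blue below it, with colour ending at 4 in either direction. LR+SE 24 h columns are red and the intact and LR 24 h columns blue for most rows, while rows such as H1f2, H2bc4, H2bc21 and H3c1 show little of this pattern.

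LR+SE was set against LR at 24 h, a contrast that also holds any difference that splenectomy made without resection. Here 46 of 53 histone genes rose and none fell, where 2.04% of all clusters were higher. The median difference was 3.22 (range 0.11 to 6.65), against -0.03 over all clusters, and all 53 differences were above 0. In 46 genes all 3 LR+SE arrays lay above all 3 LR arrays, as did 10.2% of all clusters. The core histones H2A and H3 differed most, with 11 of 13 H2A genes (median 4.42) and 9 of 10 H3 genes (median 4.72) higher. For H2B it was 12 of 15 (median 3.00), for H4 11 of 11 (median 2.60) and for H1 3 of 4 (median 1.81). Genes of chromosome 13 (40 of 45) and of chromosome 3 (6 of 8) were both involved. Fits that left out 1 array gave 41 to 46 calls. The methods' t-test, which takes the spread from the compared arrays alone, called the same 46 at an unadjusted p under 0.05 and 0 after Benjamini-Hochberg adjustment.

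H2ac15, a core histone gene of the chromosome 13 cluster, had signals of 13.30, 12.95 and 14.04 in LR+SE 24 h, against 8.22, 6.30 and 5.81 in LR 24 h. Its difference of 6.65 ± 0.76 (adjusted p = 4.22e-05, n = 3 per group) was the largest of the 53. The groups did not overlap, and the lowest LR+SE array exceeded the highest LR array by more than 4 log2 units. H3c14, with its double H3c15, stood at 14.10, 14.22 and 14.24 in LR+SE 24 h, against 9.80, 8.88 and 8.56 in LR 24 h (difference 5.10 ± 0.48, adjusted p = 1.15e-05). H3c13, its neighbour on chromosome 3, stood at 14.08, 14.14 and 14.27 in LR+SE 24 h, against 9.94, 8.91 and 8.86 in LR 24 h (4.93 ± 0.51). Under both H3 names, which may share signal, the LR+SE arrays agreed to within 0.2 log2 units while the LR arrays spread over more than 1.

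H3c10, an H3 gene of chromosome 13, stood at 12.18, 11.18 and 11.86 in LR+SE 24 h, against 7.76, 6.42 and 6.21 in LR 24 h (4.94 ± 0.55, adjusted p = 3.84e-05). H2ac10 stood at 14.23, 13.26 and 14.40 in LR+SE 24 h, against 10.20, 8.38 and 8.52 in LR 24 h (4.93 ± 0.57). Neither gene had overlapping groups. The linker histone gene H1f5, whose protein binds DNA between nucleosomes, stood at 6.05, 5.53 and 5.86 in LR+SE 24 h, against 4.17, 3.997 and 4.54 in LR 24 h (1.58 ± 0.25, adjusted p = 6.74e-04). H2bc12 stood at 9.34, 8.83 and 9.61 in LR+SE 24 h, against 6.03, 5.30 and 4.71 in LR 24 h (3.92 ± 0.44). H4c2 stood at 11.70, 10.86 and 11.49 in LR+SE 24 h, against 9.07, 8.55 and 8.63 in LR 24 h (2.60 ± 0.33). Each of these 3 was likewise higher on every LR+SE array than on every LR array. H2ac8 differed by 4.75 ± 0.55 (adjusted p = 4.87e-05).

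**Figure D3:**
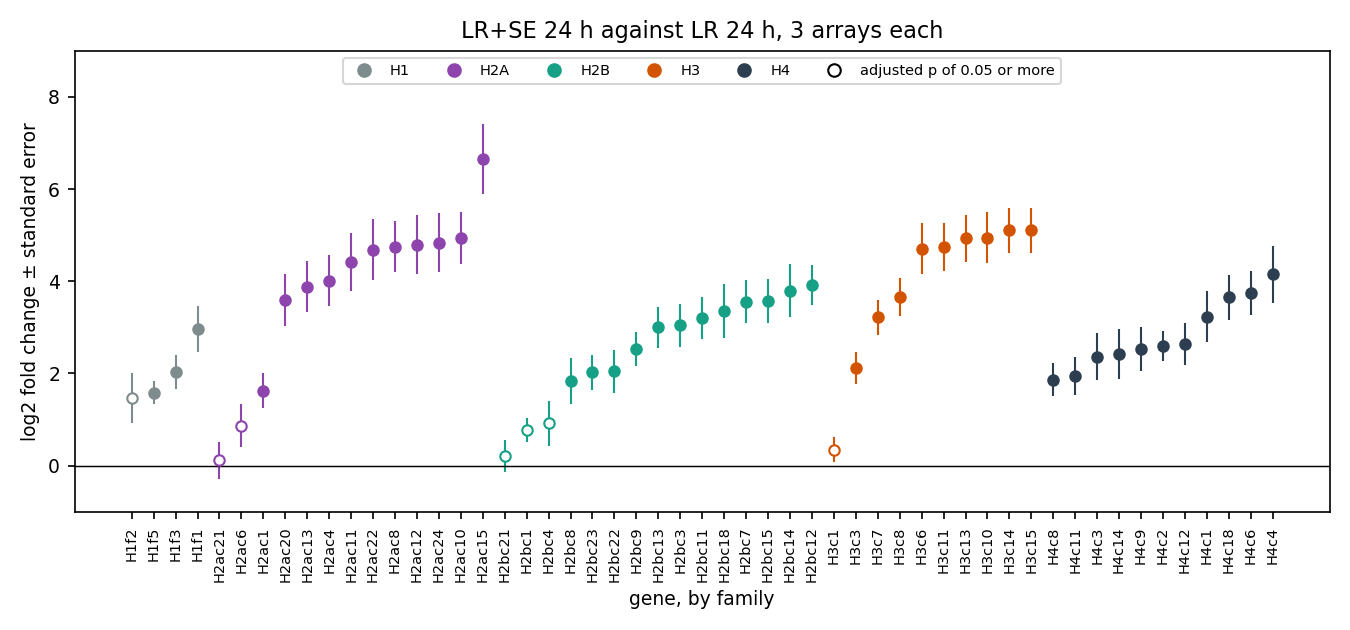
Log2 difference of LR+SE 24 h minus LR 24 h for each of the 53 histone genes (vertical axis, with its standard error, 3 arrays per group), ordered by size within each family (horizontal axis). Filled points had an adjusted p under 0.05, which held for 46 genes, and the 7 open points are H1f2, H2ac21, H2ac6, H2bc21, H2bc1, H2bc4 and H3c1.

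The 7 genes that did not pass are named after their values were seen. H2bc4 stood at 9.84, 9.58 and 11.02 in LR+SE 24 h, against 9.77, 8.34 and 9.59 in LR 24 h (0.92 ± 0.49, adjusted p = 0.431). H1f2 stood at 7.89, 7.32 and 8.85 in LR+SE 24 h, against 6.50, 5.57 and 7.57 in LR 24 h (1.47 ± 0.54, adjusted p = 0.173). Both were well above background on every array, and both groups overlapped. H2ac6 (0.87 ± 0.46) lay above background as well, while H2ac21 (0.11 ± 0.40), H2bc21 (0.20 ± 0.35) and H3c1 (0.35 ± 0.28) lay near it. The human counterparts of H1f2, H2bc4, H2ac6 and H2bc21 are known to give a polyadenylated mRNA in differentiated cells beside the stem-loop form. These 4 were picked after their values were seen. The members that rose, H2bc12 among them, were not checked for this and may share it. It therefore does not set these 4 apart from the members that rose. The part of the polyadenylated form in these values was not tested. H2bc1, a testis type H2B gene, was near background too (4.43, 3.75 and 3.34 in LR+SE 24 h, against 3.16, 3.40 and 2.63 in LR 24 h), whereas H2ac1, its testis type H2A partner, rose, at a low level, with 6.02, 5.74 and 6.56 in LR+SE 24 h, against 4.71, 4.49 and 4.24 in LR 24 h (1.63 ± 0.38, adjusted p = 0.0178).

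Other genes of S phase and division changed less widely at 24 h. Of 46 measured genes of S phase and DNA replication 8 were higher in LR+SE than in LR (median difference 0.71), among them E2f8, a repressor of the E2F family (3.64 ± 0.63), Rrm2, a subunit of ribonucleotide reductase (3.56 ± 0.79), and the replication helicase subunit Mcm5 (2.15 ± 0.51). Of 29 mitosis genes 5 were higher (median 1.24). Mki67, the proliferation marker Ki-67, stood at 12.56, 13.04 and 11.74 in LR+SE 24 h, against 8.29, 8.79 and 7.59 in LR 24 h (4.22 ± 0.69, adjusted p = 9.67e-04), followed by the kinase Plk1 (2.93 ± 0.65) and the kinetochore motor Cenpe (2.23 ± 0.46). The cyclin genes Ccna2 (2.03 ± 0.65, adjusted p = 0.107) and Ccne2 (0.78 ± 0.38, adjusted p = 0.351) and the helicase gene Mcm6 (2.00 ± 0.61, adjusted p = 0.0834) did not pass.

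None of 20 genes of histone transcription and 3′ processing was called (median 0.06), and 1 had an unadjusted p under 0.05 in limma. Slbp stood at 7.22, 7.93 and 7.95 in LR+SE 24 h, against 7.35, 7.24 and 7.21 in LR 24 h (0.43 ± 0.46). Npat differed by -0.03 ± 0.35 and Casp8ap2 by 0.41 ± 0.31, and the groups overlapped in all 3 genes. Of 22 genes of histone chaperones, which carry histones to DNA, 1 was higher, the centromere chaperone Hjurp (1.17 ± 0.29, adjusted p = 0.0290). Of 12 genes listed as replication-independent histones because they are expressed outside S phase too, only H2ax was higher. That list does not exclude expression in S phase. H2ax stood at 9.99, 10.13 and 10.39 in LR+SE 24 h, against 7.65, 6.76 and 6.74 in LR 24 h (3.12 ± 0.30, adjusted p = 1.24e-05). Its product marks sites of DNA damage when phosphorylated. The variants H2az1 (0.17 ± 0.42) and H3f3b (-0.18 ± 0.59) did not pass.

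Transcripts of immature granulocytes moved with the histone genes in this comparison. Of 8 genes of granulocyte progenitors 7 were higher in LR+SE 24 h, and their mean signal was 11.58 to 12.35 there, against 5.91 to 6.98 in LR 24 h. Mpo, myeloperoxidase, stood at 14.84, 15.01 and 15.10 in LR+SE 24 h, against 8.75, 6.60 and 7.26 in LR 24 h (7.45 ± 0.98), and Elane, neutrophil elastase, at 11.86, 12.51 and 13.84 in LR+SE 24 h, against 7.95, 5.39 and 6.47 in LR 24 h. Genes of mature neutrophils were high in both groups, with 0 of 7 called (smallest adjusted p 0.400 and 0 at an unadjusted p under 0.05 in limma) and mean signals of 11.18 to 11.58 in LR+SE 24 h, against 10.25 to 11.67 in LR 24 h. Of 9 erythroid genes 2 were higher, Slc4a1 (2.68 ± 0.34) and Rhag (2.01 ± 0.28), with mean signals of 5.17 to 5.27 in LR+SE 24 h, against 4.28 to 4.34 in LR 24 h, while the erythroid factor Klf1 stood at 3.13 to 3.24 in LR+SE 24 h, against 2.89 to 3.31 in LR 24 h, below background in both. None of 10 Kupffer cell genes was called, and 3 had an unadjusted p under 0.05. Nkg7, of the T and NK cell list, also had a higher group mean in LR+SE 24 h than its 3.65 in LR 24 h. The part of granulocyte progenitor, erythroid and other such RNA in the histone result was not tested.

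**Figure D4:**
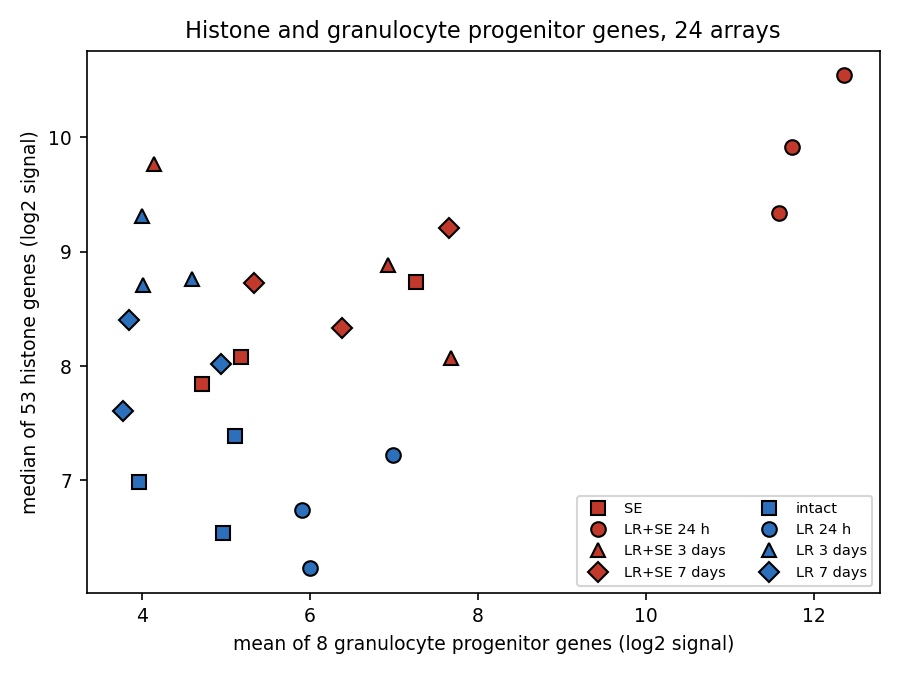
Median log2 signal of the 53 histone genes (vertical axis) against the mean log2 signal of 8 granulocyte progenitor genes (horizontal axis) on 24 arrays, with colour for the spleen (red removed, blue in place) and shape for the time. The 3 LR+SE 24 h arrays stand alone at 11.58 to 12.35 on the horizontal axis, and the LR 3 days arrays have histone medians of 8.71 to 9.32 at progenitor means of 3.996 to 4.59.

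In LR+SE 24 h against SE, both without the spleen, 18 of 53 histone genes were higher and none lower, where 0.955% of all clusters were higher. The median difference was 1.82, against -0.02 over all clusters, and 42 genes had an unadjusted p under 0.05. H3c14 and H3c15 stood at 14.10, 14.22 and 14.24 in LR+SE 24 h, against 10.85, 11.68 and 11.45 in SE (2.86 ± 0.48, adjusted p = 0.00286). H2ac24 (2.66 ± 0.64), H2ac12 (2.63 ± 0.64), H4c4 (2.61 ± 0.63) and H3c13 (2.55 ± 0.51) rose by similar amounts. H4c2 had the smallest p, with 11.70, 10.86 and 11.49 in LR+SE 24 h, against 8.95, 9.80 and 9.03 in SE (2.09 ± 0.33, adjusted p = 0.00169). The replication list had 2 of 46 genes higher, E2f8 (2.54 ± 0.63) and E2f2 (1.56 ± 0.26), the mitosis list 0 of 29 (2 at an unadjusted p under 0.05 in limma), and H2ax was higher by 1.82 ± 0.30. All 8 granulocyte progenitor genes were higher, with mean signals of 11.58 to 12.35, against 4.71 to 7.26 in SE. Neutrophil genes (6 of 7, means 11.18 to 11.58, against 5.57 to 7.84 in SE), monocyte genes (3 of 7, means 9.89 to 10.78, against 6.22 to 7.004 in SE) and hepatocyte genes (2 of 9, means 9.84 to 10.996, against 6.95 to 8.52 in SE) were higher too. So were the erythroid genes Slc4a1 (2.39 ± 0.34) and Rhag (1.61 ± 0.28), with list means of 5.17 to 5.27 in LR+SE 24 h, against 4.29 to 4.45 in SE. Nkg7, of the T and NK cell list, had a higher group mean in LR+SE 24 h than its 3.71 in SE. The part of these genes in the histone result was not tested. The count of 18 depended on single arrays, and SE replicate 2 had a histone median of 8.73, above the 7.84 and 8.08 of the other SE arrays. It was 3 without SE replicate 1 or SE replicate 3 and 27 without SE replicate 2. It was 5, 9 and 4 without replicates 1, 2 and 3 of LR+SE 24 h, and 6 after quantile normalization.

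With the spleen in place no histone gene was called at 24 h after resection. LR 24 h against intact had 0 of 53 called, where 7.59% of all clusters were called, with a median of -0.18 and 6 genes at an unadjusted p under 0.05 in limma. H4c9 had the smallest p and stood at 5.40, 5.04 and 4.41 in LR 24 h, against 5.69, 6.52 and 6.74 in intact (-1.37 ± 0.48, adjusted p = 0.0916). H2bc4 stood at 9.77, 8.34 and 9.59 in LR 24 h, against 10.09, 11.07 and 10.44 in intact (-1.30 ± 0.49, adjusted p = 0.128). In both genes the LR arrays lay below all intact arrays. Neutrophil list means were 10.25 to 11.67 in LR 24 h, against 5.355 to 6.19 in intact. S100a8 (8.76 ± 1.53) and Retnlg (7.30 ± 1.11) were called higher, while Csf3r did not pass. Monocyte list means were 9.56 to 10.49 in LR 24 h, against 5.56 to 6.10 in intact. Itgam (8.61 ± 1.15) and Fn1 (7.44 ± 0.91) were called higher, while Ccr2, Ly6c2 and Cx3cr1 did not pass. The part of these genes in the histone values was not tested.

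The response to resection at 24 h was compared between splenectomized and spleen-bearing mice by the interaction, which is LR+SE 24 h minus SE less LR 24 h minus intact. It passed for 3 of 53 histone genes, where 0.473% of all clusters were higher. These were H3c14 and H3c15 (4.01 ± 0.68, adjusted p = 0.0102) and H3c13 (3.56 ± 0.72, adjusted p = 0.0279). H3c13 ran close to H3c14, at 10.83, 10.02 and 9.90 in intact, where H3c14 stood at 10.83, 10.02 and 9.87. The 3 names may therefore hold 1 shared signal. The median over the 53 was 1.73, against -0.01 over all clusters, 50 differences were above 0 and 34 had an unadjusted p under 0.05. With the term for Y-linked signal the H3c14 value was 4.29 ± 0.86 (adjusted p = 0.0818) and no histone gene passed. Outside the set H2ax passed (adjusted p = 0.0160), as did 5 of 8 granulocyte progenitor genes (median 4.61). Slc4a1 among 9 erythroid genes (2.53 ± 0.48), Alb among 9 hepatocyte genes (3.498 ± 0.73) and Nkg7 among 9 T and NK cell genes (2.53 ± 0.40) passed with higher values, and Marco among 10 Kupffer cell genes with a lower one (-6.84 ± 1.16). Their part in the histone result was not tested.

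At 3 days the histone genes were high with the spleen in place as well. In LR 3 days against LR 24 h, 37 of 53 rose and none fell, where 3.13% of all clusters were higher, with a median of 2.21 against -0.03 over all clusters. H2ac15 stood at 11.29, 11.74 and 12.41 in LR 3 days, against 8.22, 6.30 and 5.81 in LR 24 h (5.04 ± 0.76, adjusted p = 6.21e-04). H3c14 and H3c15 stood at 12.95, 13.53 and 13.76 in LR 3 days, against 9.80, 8.88 and 8.56 in LR 24 h (4.33 ± 0.48). Neither pair of groups overlapped. H3c13 (4.09 ± 0.51), H3c10 (3.97 ± 0.55) and H3c11 (3.82 ± 0.52) followed. Of the H3 genes 9 of 10 rose and of the H2A genes 10 of 13, against 10 of 15 for H2B, 6 of 11 for H4 and 2 of 4 for H1. In 46 genes the groups did not overlap, with LR 3 days higher, as in 12.6% of all clusters. Of 7 neutrophil genes 5 fell in this comparison, with mean signals of 6.11 to 6.44 in LR 3 days, against 10.25 to 11.67 in LR 24 h. Tfrc of the erythroid list rose (2.92 ± 0.54) and the hepatocyte gene Fgb fell (-3.81 ± 0.96). The part of these genes was not tested.

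LR 3 days against intact gave 37 of 53 histone genes higher and none lower, where 1.4% of all clusters were higher, with a median of 2.33. In 46 genes the LR 3 days arrays lay above all intact arrays, as in 11.1% of all clusters. Both comparisons use the same LR 3 days arrays. H2ac15 stood at 11.29, 11.74 and 12.41 in LR 3 days, against 8.09, 7.18 and 6.73 in intact (4.48 ± 0.76, adjusted p = 0.00281). H3c6 stood at 11.09, 11.28 and 11.68 in LR 3 days, against 9.002, 7.61 and 7.12 in intact (3.44 ± 0.56). H3c10 (3.41 ± 0.55), H2ac10 (3.30 ± 0.57), H3c11 (3.28 ± 0.52) and H2ac22 (3.22 ± 0.67) were alike in size. H1f2 (-1.32 ± 0.54, adjusted p = 0.278) and H2bc4 (-1.03 ± 0.49, adjusted p = 0.394) did not pass, and in both all LR 3 days arrays lay below all intact arrays. The count was 21 without intact replicate 3 or without LR 3 days replicate 3. It was 11 with the term for Y-linked signal, under which the median was 2.21.

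Replication and mitosis genes rose alongside at this time. In LR 3 days against intact 18 of 46 genes of S phase and 17 of 29 of mitosis were higher, and in LR 3 days against LR 24 h 23 and 19. Mcm6 stood at 10.30, 9.82 and 10.10 in LR 3 days, against 5.95, 5.52 and 5.96 in intact (4.26 ± 0.61, adjusted p = 8.63e-04), and Mki67 at 12.23, 12.60 and 12.80 in LR 3 days, against 8.42, 8.16 and 7.501 in intact (4.52 ± 0.69). The groups were far apart in both. E2f8 (4.44 ± 0.63), Mcm2 (3.44 ± 0.55), Kif20a (4.37 ± 0.70) and Plk1 (4.26 ± 0.65) rose too. Ccna2 rose by 2.84 ± 0.65 and Ccne2 differed by 0.50 ± 0.38. Among chaperones Asf1b, which hands new H3 and H4 to the replication fork, rose by 3.07 ± 0.51 and the assembly factor subunit Chaf1b by 1.82 ± 0.35, and H2ax rose by 2.19 ± 0.30. Slbp (0.41 ± 0.46), Npat (0.30 ± 0.35) and Casp8ap2 (-0.23 ± 0.31) did not pass, and none of the 20 processing genes was called (3 at an unadjusted p under 0.05 in limma). In LR 3 days against LR 24 h 1 of these 20 rose, Lsm10 (1.02 ± 0.30), a part of the U7 particle that cleaves histone mRNA.

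Granulocyte progenitor genes did not accompany the histone genes at 3 days with the spleen in place. None of 8 was called in LR 3 days against intact (0 at an unadjusted p under 0.05 in limma), their median difference was -0.37, and their mean signal was 3.996 to 4.59 in LR 3 days, against 3.96 to 5.11 in intact. Mpo stood at 4.62, 4.04 and 3.86 in LR 3 days, close to the background level. Of 7 monocyte genes 4 were higher, with mean signals of 8.56 to 9.41 in LR 3 days, against 5.56 to 6.10 in intact. Tfrc, alone of the erythroid list, was higher (2.85 ± 0.54, adjusted p = 0.00603). Jchain (-3.60 ± 0.64) and the hepatocyte gene Ces1c (-3.38 ± 0.80) were lower. The part of these genes in the histone result was not tested.

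**Figure D5:**
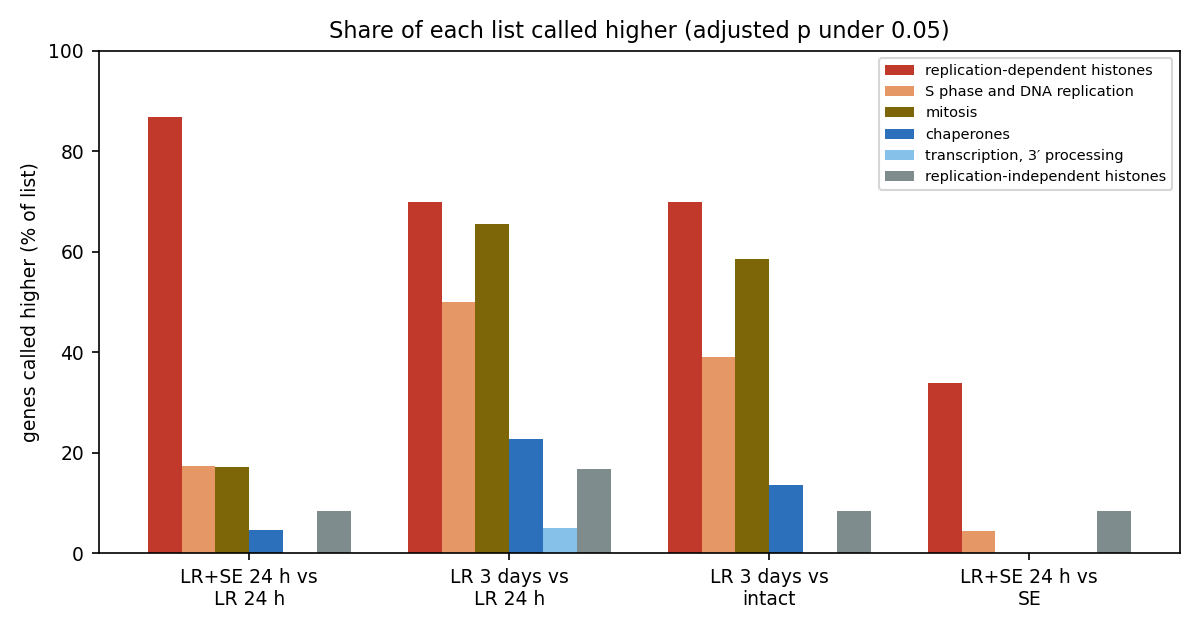
Share of each gene list called higher (vertical axis, percent of measured genes) in 4 comparisons (horizontal axis), with a bar for each list. The histone share was 46 of 53 in LR+SE 24 h vs LR 24 h beside 8 of 46 genes of S phase and 5 of 29 of mitosis, and 37 of 53 in LR 3 days vs LR 24 h beside 23 of 46 and 19 of 29.

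At 3 days the arrays with and without the spleen overlapped. LR+SE 3 days against LR 3 days gave 0 of 53 histone genes called, where 0.126% of all clusters were called, and 0 genes had an unadjusted p under 0.05 in limma. The median difference was -0.20. H3c14 and H3c15, which had the smallest p, stood at 12.59, 11.46 and 13.94 in LR+SE 3 days, against 12.95, 13.53 and 13.76 in LR 3 days (-0.75 ± 0.48, adjusted p = 0.920). The 3 LR+SE arrays spread over more than 2 log2 units, with replicate 2 lowest and replicate 3 highest, the order of the array medians too. Against SE none of the 53 passed in LR+SE 3 days, where 6.92% of all clusters were called (median 0.59, 6 at an unadjusted p under 0.05 in limma), and H3c14 and H3c15 differed by 1.34 ± 0.48 (adjusted p = 0.107). In the fits that left out 1 array 2 genes passed without SE replicate 2 and 3 without LR+SE 3 days replicate 2. Hepatocyte genes were far higher in LR+SE 3 days than in SE, among them Apoa1 (6.77 ± 1.12), Ttr (6.70 ± 1.05) and Fgb (6.40 ± 0.96). Every gene of that list was called except Cyp2e1 (1.89 ± 0.74, adjusted p = 0.146). Their part in the histone values was not tested.

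The interaction at 3 days had a median of -1.83 over the 53 genes, with 51 differences below 0 and 35 at an unadjusted p under 0.05, but none passed, where 0.513% of all clusters were called. H3c11 (-2.63 ± 0.74, adjusted p = 0.142) and H2ac10 (-2.82 ± 0.80, adjusted p = 0.153) had the smallest p-values. Without LR+SE 3 days replicate 3, 15 histone genes passed. Of 9 hepatocyte genes 4 passed in this interaction with higher values, Ttr (7.65 ± 1.49), Apoa1 (7.21 ± 1.59), Ces1c (6.04 ± 1.13) and Alb (3.70 ± 0.73), as did the plasma cell gene Jchain (4.19 ± 0.91), and the Y-linked Uty passed with a lower one (-10.18 ± 1.94). Their part in the histone values was not tested.

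In splenectomized mice the histone genes were lower at 3 days than at 24 h in 52 of 53 differences (median -1.11), of which 1 passed, where 0.518% of all clusters were lower and 37 of the 53 genes had an unadjusted p under 0.05. This was H4c2, at 9.87, 9.50 and 10.51 in LR+SE 3 days, against 11.70, 10.86 and 11.49 in LR+SE 24 h (-1.39 ± 0.33, adjusted p = 0.0385), with no overlap. The call was lost without replicate 1 or 3 of LR+SE 24 h and without replicate 1 or 2 of LR+SE 3 days, and without LR+SE 3 days replicate 3 there were 11 calls. Granulocyte progenitor genes fell in the same comparison, 7 of 8, with mean signals of 4.14 to 7.68 in LR+SE 3 days, against 11.58 to 12.35 in LR+SE 24 h, among them Mpo (-7.60 ± 0.98). Of 9 erythroid genes 3 fell, Slc4a1 (-2.65 ± 0.34), Rhag (-2.11 ± 0.28) and Ermap (-0.98 ± 0.21), with list means of 4.13 to 4.56 in LR+SE 3 days, against 5.17 to 5.27 in LR+SE 24 h. The neutrophil gene S100a9 (-5.72 ± 1.37) and Nkg7 (-2.05 ± 0.28) fell too, and the part of these genes was not tested.

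From 3 to 7 days after splenectomy and resection none of the 53 genes passed (LR+SE 7 days against LR+SE 3 days, median -0.16, 0 at an unadjusted p under 0.05 in limma), where 1.36% of all clusters were called. H3c1 (0.53 ± 0.28) and H2ac6 (0.79 ± 0.46) had the smallest p-values, adjusted 0.636 and 0.714. Hepatocyte genes fell between the same groups. Apoa1 (-5.91 ± 1.12), Cps1 (-5.82 ± 0.90), Ttr (-5.55 ± 1.05), Tat (-5.47 ± 1.08) and Fgb (-4.39 ± 0.96) were called lower. Alb, Apoa2, Cyp2e1 and Ces1c did not pass. Their part in the histone values was not tested.

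With the spleen in place the histone genes were lower at 7 days than at 3 days in 48 of 53 differences (median -1.02), and 1 gene passed, where 0.959% of all clusters were lower and 29 of the 53 had an unadjusted p under 0.05. H3c3 stood at 6.70, 6.96 and 7.76 in LR 7 days, against 8.53, 8.44 and 8.66 in LR 3 days (-1.40 ± 0.35, adjusted p = 0.0482). Its groups did not overlap, and its call was lost in 4 of the 6 fits that left out 1 array, those without LR 7 days replicate 1 and without each LR 3 days array. Of the replication genes 6 of 46 fell in this comparison and of the mitosis genes 1 of 29. Tfrc of the erythroid list fell as well (-2.49 ± 0.54), and its part was not tested.

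LR 7 days against intact had no histone gene called, where 1% of all clusters were called, although 52 of 53 differences were above 0 (median 1.04) and 27 had an unadjusted p under 0.05 in limma. H2bc13 stood at 7.60, 7.04 and 7.80 in LR 7 days, against 5.88, 5.89 and 5.33 in intact (1.78 ± 0.45, adjusted p = 0.0599), and H4c18 at 10.05, 9.80 and 10.40 in LR 7 days, against 8.48, 8.05 and 7.89 in intact (1.95 ± 0.49, adjusted p = 0.0601). Both were higher on every LR 7 days array. Without LR 7 days replicate 2, one of the arrays without Y-linked signal, 3 genes passed. Jchain (-3.78 ± 0.64) and the hepatocyte genes Ces1c (-5.01 ± 0.80), Ttr (-4.46 ± 1.05) and Cyp2e1 (-3.77 ± 0.74) were called lower than in intact. Their part was not tested.

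LR+SE 7 days against LR 7 days had none called either, where 1.64% of all clusters were called, with a median of 0.72 and 16 genes at an unadjusted p under 0.05 in limma. H2ac6 stood at 7.36, 6.35 and 6.78 in LR+SE 7 days, against 5.002, 5.11 and 5.64 in LR 7 days (1.58 ± 0.46, adjusted p = 0.0919), and H2bc7 at 9.80, 9.56 and 9.21 in LR+SE 7 days, against 7.66, 8.11 and 8.56 in LR 7 days (1.41 ± 0.47, adjusted p = 0.150). All LR+SE arrays were higher in both genes. In the mitosis list 0 of 29 were called (2 at an unadjusted p under 0.05 in limma), and its array means were 5.51, 5.88 and 5.78 in LR+SE 7 days, against 5.33, 7.21 and 5.43 in LR 7 days, where replicate 2 alone lay above the LR+SE arrays. Without LR 7 days replicate 2, 1 histone gene passed. Of 8 sinusoidal endothelial genes 6 were higher, with mean signals of 13.58 to 14.51 in LR+SE 7 days, against 10.41 to 10.90 in LR 7 days. Jchain was higher too (2.66 ± 0.64, adjusted p = 0.0396), and the part of these genes was not tested.

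LR+SE 7 days against SE had a median of 0.45 and no call, where 1.52% of all clusters were called (1 at an unadjusted p under 0.05 in limma), with H2bc23 (0.82 ± 0.38, adjusted p = 0.327) and H2bc11 (0.92 ± 0.45, adjusted p = 0.362) first by p. The interaction at 7 days had no call, where 0.122% of all clusters were called (median -0.68, 1 at an unadjusted p under 0.05 in limma), with H2bc1 (-0.81 ± 0.37) and H4c18 (-1.32 ± 0.70) first. Jchain (6.31 ± 0.91), Ces1c (6.07 ± 1.13) and Alb (3.77 ± 0.73) passed in this interaction with higher values. Alb was also higher in LR+SE 7 days than in SE (2.86 ± 0.52, adjusted p = 0.00785). Their part in the histone values was not tested.

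Splenectomy without resection gave 2 of 53 histone genes higher and none lower, where 0.185% of all clusters were higher. The median difference of SE from intact was 1.40, against 0.01 over all clusters, with 52 of 53 differences above 0 and 44 at an unadjusted p under 0.05. In 38 genes all SE arrays lay above all intact arrays, as did 7.8% of all clusters. H1f1, a linker histone gene, stood at 6.13, 7.33 and 6.66 in SE, against 4.48, 4.35 and 4.14 in intact (2.38 ± 0.50, adjusted p = 0.0320). H3c11 stood at 10.46, 11.18 and 10.49 in SE, against 9.20, 8.20 and 7.42 in intact (2.44 ± 0.52, adjusted p = 0.0350). Neither gene had overlapping groups, but no histone gene passed without intact replicate 2 or 3 or without SE replicate 2 or 3. With the term for Y-linked signal no gene passed and the median was 1.47. Without SE replicate 1, 4 passed. Of 9 hepatocyte genes 3 were lower, with mean signals of 6.95 to 8.52 in SE, against 9.58 to 11.55 in intact. The plasma cell gene Jchain was lower too (-3.65 ± 0.64, adjusted p = 0.0104). The part of these genes was not tested. Mki67 was higher (3.11 ± 0.69, adjusted p = 0.0425), the only mitosis gene of 29 called, with 9.62, 12.03 and 11.74 in SE, against 8.42, 8.16 and 7.501 in intact.

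The genes outside the set whose profile over the 24 arrays was most like the mean profile of the 53 were ranked by correlation among 19452 named genes, as a description with no p. H2ax came first (r 0.914), then E2f8 (0.857), Mki67 (0.844), the cytokinesis kinase Cit (0.828), the transcriptional repressor Hey1 (0.802), Rrm2 (0.789), the DNA glycosylase Neil3 (0.781), E2f2 (0.776), H4bc24 (0.770) and the spindle motor Kif11 (0.770). The median r was 0.62 for the mitosis list, 0.49 for S phase, 0.25 for chaperones, 0.20 for replication-independent histones and 0.09 for histone transcription and processing. Slbp had r 0.22 and Npat 0.14.

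Within the set, the 2 members least like the others by this measure were H2bc4 (r 0.05) and H1f2 (r 0.12), both named after their values were seen. H2bc4 had its highest group mean in intact, at 10.09, 11.07 and 10.44, and was 9.84, 9.58 and 11.02 in LR+SE 24 h. H1f2 had its highest group mean in SE, at 8.26, 8.08 and 8.93, and its lowest in LR 3 days, at 6.24, 6.73 and 6.38, the group in which most members were high with the spleen in place. Neither gene was called in any of the comparisons named above.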

How the data were processed

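RNA of macrophage preparations was measured on Clariom S mouse arrays, 8 groups of 3. The deposited values are log2 signals that the authors made by robust multi-array averaging in Transcriptome Analysis Console, whose version is not given in the sources used here. The labels name MagZOL and the methods RNeasy for RNA extraction. Of 28846 entries 6640 control probe sets were left out, which leaves 22206 clusters, of which 19572 had 1 symbol and 2634 none. Values were tested as deposited with limma 3.58.1 in R 4.3.3: 1 mean per group over all 24 arrays, 14 pairwise comparisons and 3 interactions, and p-values adjusted by Benjamini-Hochberg over all clusters. The script was tested on simulated data. Signals under the 95th percentile of 1091 clusters of odorant receptors counted as background. Named members were the 6 called genes of largest fold without overlap in each comparison, or the 2 of smallest p where none was called, and 1 leading member of each family, H2ac1 and H2bc1. From other lists they were up to 3 called genes and a set list of regulators. Members and lists were chosen with earlier results of these data known. Alternatives were other normalizations, filters, fits and the methods' t-test, and leaving out arrays.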

Additional observations from a re-analysis of the deposited data

Results flagged for a closer look

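The response to resection at 24 h differed between splenectomized and spleen-bearing mice, by the interaction term itself, for H3c14 and H3c15 (4.01 ± 0.68 for each name, 1 measurement, limma adjusted p = 0.0102) and for H3c13 (3.56 ± 0.72, adjusted p = 0.0279). In H3c14 the difference of LR+SE 24 h from SE was 2.86 ± 0.48 and that of LR 24 h from intact -1.16 ± 0.48 (adjusted p = 0.173). In H3c13 these were 2.55 ± 0.51 and -1.02 ± 0.51 (adjusted p = 0.288). The H3c13 values ran close to those of H3c14 on the arrays, so these names may hold shared signal. With the term for Y-linked signal the values were 4.29 ± 0.86 for H3c14 (adjusted p = 0.0818) and 3.84 ± 0.91 for H3c13 (adjusted p = 0.149). The intact arrays that enter this interaction are the 3 that lack Y-linked signal, and the part of that in the result was not tested further.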

How the results depend on the processing

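Counts are histone genes called of 53. They stand without the count of all clusters called in the same fit, which can change as well. In LR+SE 24 h vs LR 24 h they stayed at 41 to 46 when 1 array was left out, but were 0 under the methods' t-test with Benjamini-Hochberg adjustment, as they were in LR 3 days vs intact, LR+SE 24 h vs SE, SE vs intact, LR 7 days vs LR 3 days and LR+SE 3 days vs LR+SE 24 h, and 3 in LR 3 days vs LR 24 h. That test uses the spread of the compared arrays alone. Unadjusted, it called 1 in LR 24 h vs intact, 19 in LR 7 days vs intact, 38 in LR+SE 24 h vs SE, 1 each in LR+SE 3 days vs SE, LR+SE 7 days vs SE and LR+SE 3 days vs LR 3 days, 29 in SE vs intact, 12 in LR+SE 7 days vs LR 7 days, 32 in LR 7 days vs LR 3 days and 3 in LR+SE 3 days vs LR+SE 24 h. Quantile normalization gave 6 in LR+SE 24 h vs SE, and 0 in LR 7 days vs LR 3 days and in LR+SE 3 days vs LR+SE 24 h. A variance trend gave 0 in both of these, and a fit of the compared groups only gave 0 in both and 4 in SE vs intact. With dim clusters left out there were 2 in LR 7 days vs intact, 9 in SE vs intact, 4 in LR 7 days vs LR 3 days and 3 in LR+SE 3 days vs LR+SE 24 h. The term for Y-linked signal gave 11 in LR 3 days vs intact and 0 in SE vs intact, LR 7 days vs LR 3 days, LR+SE 3 days vs LR+SE 24 h and the 24 h interaction. Without both arrays lacking that signal outside the intact group, an alternative chosen after seeing the data, there were 3 in LR 7 days vs intact, 1 in LR+SE 7 days vs LR 7 days and 0 in LR+SE 3 days vs LR+SE 24 h, and the 1 call in LR 7 days vs LR 3 days was a different gene. Median centring and the mean of clusters sharing a symbol kept every count within 1.5 times, and with H3c14 and H3c15 counted once there were 45 in LR+SE 24 h vs LR 24 h. The causes were not tested.

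With 1 array left out at a time the counts ran from 21 to 36 in LR 3 days vs intact, 26 to 36 in LR 3 days vs LR 24 h, 3 to 27 in LR+SE 24 h vs SE, 0 to 4 in SE vs intact, 0 to 3 in LR 7 days vs intact and in LR+SE 3 days vs SE, 0 to 11 in LR+SE 3 days vs LR+SE 24 h, 0 to 1 in LR 7 days vs LR 3 days and in LR+SE 7 days vs LR 7 days, 2 to 3 in the 24 h interaction and 0 to 15 in the 3 days interaction, and stayed at 0 in the others. The replicate block gave 11 in LR+SE 24 h vs SE and 0 in LR 7 days vs LR 3 days. Replicate numbers did not pair the arrays: 28 of 84 pairs with the same number correlated above 0.1 (median r -0.0067), and 8 of 24 arrays correlated best with their own number. Of 859 values of the named members under alternatives, 745 kept direction and call, 98 lost the call, 16 gained it and 0 called results changed sign.

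Limits: 3 pooled preparations per group set the precision. Probes of near-identical genes were not told apart. Deposited values reached 19.93, and bright genes have little room to differ near that end. Genes near background, such as H2bc1, H3c1 and H2ac21, have little room to show a difference.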

Other observations

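On LR 7 days replicate 2, an array without Y-linked signal, the mitosis genes had a mean of 7.21, the highest of the 24 arrays, against 5.33 and 5.43 on the other LR 7 days arrays. Mki67 stood at 10.08, 13.61 and 10.89 on the 3 arrays. The histone median on replicate 2 was 8.02, between the 7.61 and 8.41 of the others. Mitosis genes and histone genes thus ranked this array differently.

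H3f3b, which encodes the replacement histone H3.3 used outside S phase, stood at 16.17, 18.58 and 15.20 in LR 7 days and at 17.53, 19.02 and 18.66 in intact, and between 15.47 and 16.89 on the arrays of the other 6 groups. The 6 measured histone genes of the germ line outside the chosen symbols all had means below the background level, with array means of 2.93 to 3.41, and none was called in the 17 comparisons.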
